A study of Mus musculus with 8 samples.

Results

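The calcium-calmodulin kinases turn a rise in intracellular calcium into protein phosphorylation, and 10 of their genes were followed here: Camk2a, Camk2b, Camk2d and Camk2g, which encode the 4 subunits of CaMKII, Camkk1 and Camkk2, which encode the kinases of kinases, and Camk1, Camk1d, Camk1g and Camk4, which encode the kinases that CaMKK activates. They were chosen by symbol and not by a threshold on their values, though with earlier results of these data known. They are 10 of the 30211 genes in the count matrices. RNA was counted in single nuclei of the mouse hippocampus, in 8 libraries of 1 C57BL/6 mouse each (C57BL/6N in the study's methods): 3 WT mice and 3 GKO mice of 7 months, with 1 mouse each for J20;WT and J20;GKO at the age of 6 months. GKO mice carry a constitutive deletion within Gsap, made by crossing a floxed Gsap allele to CMV-Cre, so that every tissue carries it. J20 mice carry a human APP transgene with the Swedish and Indiana mutations, driven by the PDGFB promoter, and the name of the J20 stock places the transgene in Zbtb20. The J20 mice are a month younger than the others and there is 1 mouse of each J20 genotype, so the transgene and age cannot be told apart in them.

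CaMKII forms large holoenzymes of α, β, δ and γ subunits, of which α and β dominate in forebrain neurons, where the kinase acts in long-term potentiation at excitatory synapses. The β subunit binds F-actin, and the δ and γ subunits are found in many tissues. CaMKK1 and CaMKK2 phosphorylate the activation loop of CaMKI and CaMKIV, and CaMKK2 also activates AMPK. CaMKIV is mostly nuclear and phosphorylates CREB, while the CaMKI kinases are mostly cytoplasmic and act in axon and dendrite growth.

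The filter kept 32041 nuclei of 33314 barcodes. Library totals were 21020159 to 43310978 UMIs (unique molecular identifiers, which count each captured RNA once), with medians of 4579 to 6438.5 UMIs per nucleus. Pairs of libraries shared 2 to 21 cell barcodes. Nuclei were clustered without the 10 genes, and clusters were named by markers. Of the named nuclei, 13243 were excitatory neurons (5765 dentate granule, 3377 CA1, 1183 CA3, 1129 subiculum or cortex and 1789 others), 1655 inhibitory neurons, 2790 astrocytes, 7070 oligodendrocytes, 1129 oligodendrocyte progenitor cells (OPCs) and 2177 microglia. Most markers of each type were highest in it, while Dock10 was not highest in dentate granule neurons, nor Rorb and Cux2 in subiculum or cortex. The targeted gene did not separate the labels: Gsap stood at 22.6 ± 0.358 CPM (counts per 1000000 UMIs of the nuclei considered, SD, n = 3) in WT mice and 21.2 ± 1.21 CPM (n = 3) in GKO mice, at 19.9 CPM in J20;WT and at 21.1 CPM in J20;GKO. Whether the counted reads lie within the deleted exons is not given in the sources used here, and the study's own genotyping was not analysed here. Directions for GKO are therefore those of the libraries labelled GKO. Xist, transcribed from the inactive X chromosome, was at 2135 to 2410 CPM in WT 1, GKO 1 and J20;GKO and at most 3.00 CPM in the other 5 libraries. Sex therefore coincides with the batch of WT 1 and GKO 1 among the WT and GKO mice, and differs between the J20 mice.

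The promoter windows of Camk2d, Camk2b and Camkk2 are shown because these genes differed between J20 and other mice in dentate granule neurons and have a RefSeq window that can be printed. Each window runs from 250 bases before to 50 bases after the transcription start on GRCm38.p6 and is written on the gene's strand, with GC boxes (GGGCGG on either strand) in capitals. The Camk2d window is chr3:126596701-126597000 on the plus strand, the Camk2b window is chr11:6065699-6065998 on the minus strand and the Camkk2 window is chr5:122779361-122779660 on the minus strand.
Camk2d: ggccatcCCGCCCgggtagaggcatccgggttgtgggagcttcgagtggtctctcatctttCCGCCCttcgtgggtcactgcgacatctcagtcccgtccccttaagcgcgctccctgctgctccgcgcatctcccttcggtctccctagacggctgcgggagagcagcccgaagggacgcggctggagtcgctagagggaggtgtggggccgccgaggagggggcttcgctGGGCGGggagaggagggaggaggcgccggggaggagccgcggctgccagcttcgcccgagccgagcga
Camk2b: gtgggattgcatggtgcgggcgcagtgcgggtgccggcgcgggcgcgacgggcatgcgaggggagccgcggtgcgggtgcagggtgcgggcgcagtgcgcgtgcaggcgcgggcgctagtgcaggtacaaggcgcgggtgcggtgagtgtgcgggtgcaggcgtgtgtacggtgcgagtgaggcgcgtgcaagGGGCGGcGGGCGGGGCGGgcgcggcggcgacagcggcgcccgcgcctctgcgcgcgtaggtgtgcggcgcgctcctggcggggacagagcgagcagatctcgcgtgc
Camkk2: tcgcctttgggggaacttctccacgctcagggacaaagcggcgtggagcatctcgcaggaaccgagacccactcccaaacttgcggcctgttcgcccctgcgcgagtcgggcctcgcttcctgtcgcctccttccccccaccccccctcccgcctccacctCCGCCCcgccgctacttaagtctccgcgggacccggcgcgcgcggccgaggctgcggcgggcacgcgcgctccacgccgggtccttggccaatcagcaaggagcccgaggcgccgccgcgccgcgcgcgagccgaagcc

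These windows are 70.3%, 77.3% and 73.3% G or C. Of the 10 genes, 7 had a window (8 windows, 2 of them for Camk1d), and 5 of these 7 genes had a GC box in at least 1 of theirs, Camk1d in both. Over all genes the share was counted by window and not by gene, at 35.7% of 32851 windows. The short CRE core TGACG was in the windows of Camk1 and Camkk1 and in 20.8% of all windows. The full CRE TGACGTCA, the AP-1 motif TGACTCA and the PU.1 motif GAGGAAGT were in none of the 8 windows and in 1.79%, 5.20% and 3.20% of all windows. A match describes letters only.

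Levels are given below for the 6 WT and GKO mice together, as CPM of the summed nuclei of a type in each mouse. They describe 1 gene across types. UMIs are not scaled by gene length, so the levels of different genes are not compared.

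Camk2a, the CaMKIIα gene and a common marker of forebrain excitatory neurons, was highest in the principal neurons of the hippocampus. In dentate granule neurons it was at 1643, 1530 and 1221 CPM in WT mice and 1631, 1508 and 1442 CPM in GKO mice, a mean of 1496 ± 155 CPM (SD, n = 6). In CA1 neurons it was at 1252 ± 125 CPM, in CA3 neurons at 1095 ± 82.0 CPM and in the other excitatory neurons at 922 ± 125 CPM, and each of these overlapped its neighbour in the order. Neurons of the subiculum or cortex stood apart below them at 548 ± 102 CPM. The interneurons followed with no gap, from 450 CPM in Pvalb to 366 CPM in Sst interneurons. Glia had lower means, at 179 CPM in astrocytes, 168 CPM in OPCs, 124 CPM in microglia and 83.5 CPM in oligodendrocytes, and of these OPCs, at up to 340 CPM, overlapped Sst interneurons.

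Camk2b, the CaMKIIβ gene, separated the types most often, with 5 of 12 neighbouring pairs in the order not overlapping. Dentate granule neurons held 513 to 616 CPM, above CA3 neurons (358 ± 34.2 CPM) and CA1 neurons (303 ± 38.6 CPM), which overlapped each other. Subiculum or cortex was at 176 ± 12.3 CPM and inhibitory neurons were at 127 ± 10.4 CPM. Oligodendrocytes were lowest at 42.2 ± 4.44 CPM.

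Camk2d, the CaMKIIδ gene, ran the other way. Its level in microglia was 510, 599 and 585 CPM in WT mice and 535, 520 and 611 CPM in GKO mice, above every other type with no overlap. Astrocytes followed at 220 ± 24.4 CPM. CA3 neurons (34.8 ± 10.4 CPM) and dentate granule neurons (29.1 ± 5.34 CPM) were lowest and overlapped. Camk2g, the CaMKIIγ gene, was highest in astrocytes, at 301 to 383 CPM, with no overlap with Pvalb interneurons at 149 ± 22.9 CPM. It was lowest in CA3 neurons (37.0 ± 8.71 CPM) and oligodendrocytes (40.9 ± 6.66 CPM).

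The kinases of kinases differed from each other in where they were found. Camkk1 was highest in dentate granule neurons, at 63.0 to 81.7 CPM, above CA3 (41.8 ± 3.64 CPM) and CA1 neurons (36.04 ± 3.74 CPM) with no overlap, and was lowest in oligodendrocytes at 7.64 ± 3.54 CPM. Camkk2 was at 161 ± 24.1 CPM in microglia and 118 ± 12.9 CPM in CA1 neurons, which overlapped, and 89.4 ± 6.09 CPM in dentate granule neurons. Oligodendrocytes held 14.8 ± 1.11 CPM of Camkk2 and did not overlap astrocytes, the next type above.

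Of the CaMKI genes, Camk1 was highest in microglia, at 277 to 378 CPM, with no overlap, and lowest in dentate granule neurons at 10.5 ± 1.5 CPM. Among interneurons its level moved with the batch: WT 1 and GKO 1 held the lowest values for inhibitory neurons as a whole. Camk1d was highest in CA3 neurons, at 1070, 994 and 820 CPM in WT mice and 1223, 1005 and 957 CPM in GKO mice, and in microglia at 673 to 968 CPM. These ranges overlapped each other and no other type. Camk1g had the widest range of means of the 10 genes, 64.7-fold. Vip (28.7 ± 7.94 CPM) and Sst interneurons (24.4 ± 6.53 CPM) stood above all excitatory types and glia, with Sst overlapping Pvalb interneurons (6.64 to 19.1 CPM), while dentate granule neurons held 0.160 to 0.750 CPM and Lamp5 interneurons 0 to 3.91 CPM.

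Camk4, the gene of the nuclear kinase of CREB, was highest in neurons of the subiculum or cortex (367 ± 69.1 CPM) and in the other excitatory neurons (348 ± 20.0 CPM), which overlapped. Vip interneurons held 265 ± 79.2 CPM, CA3 neurons 198 ± 29.6 CPM and CA1 neurons 136 ± 24.2 CPM. Dentate granule neurons were far below the other excitatory types, at 43.6 ± 10.5 CPM, and overlapped Pvalb interneurons at 55.0 ± 6.90 CPM. Oligodendrocytes were lowest at 13.4 ± 4.39 CPM. Antisense genes overlap Camk4 (at its start and within it), Camk1 (Ogg1), Camk1d, Camk1g and Camk2d, and the sources used here do not state whether counting used strand. Gm15551, the antisense gene in Camk2d, had means in dentate granule neurons of 0.135 CPM in the J20 mice and 0.0219 CPM in the WT and GKO mice.

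**Figure D1:**
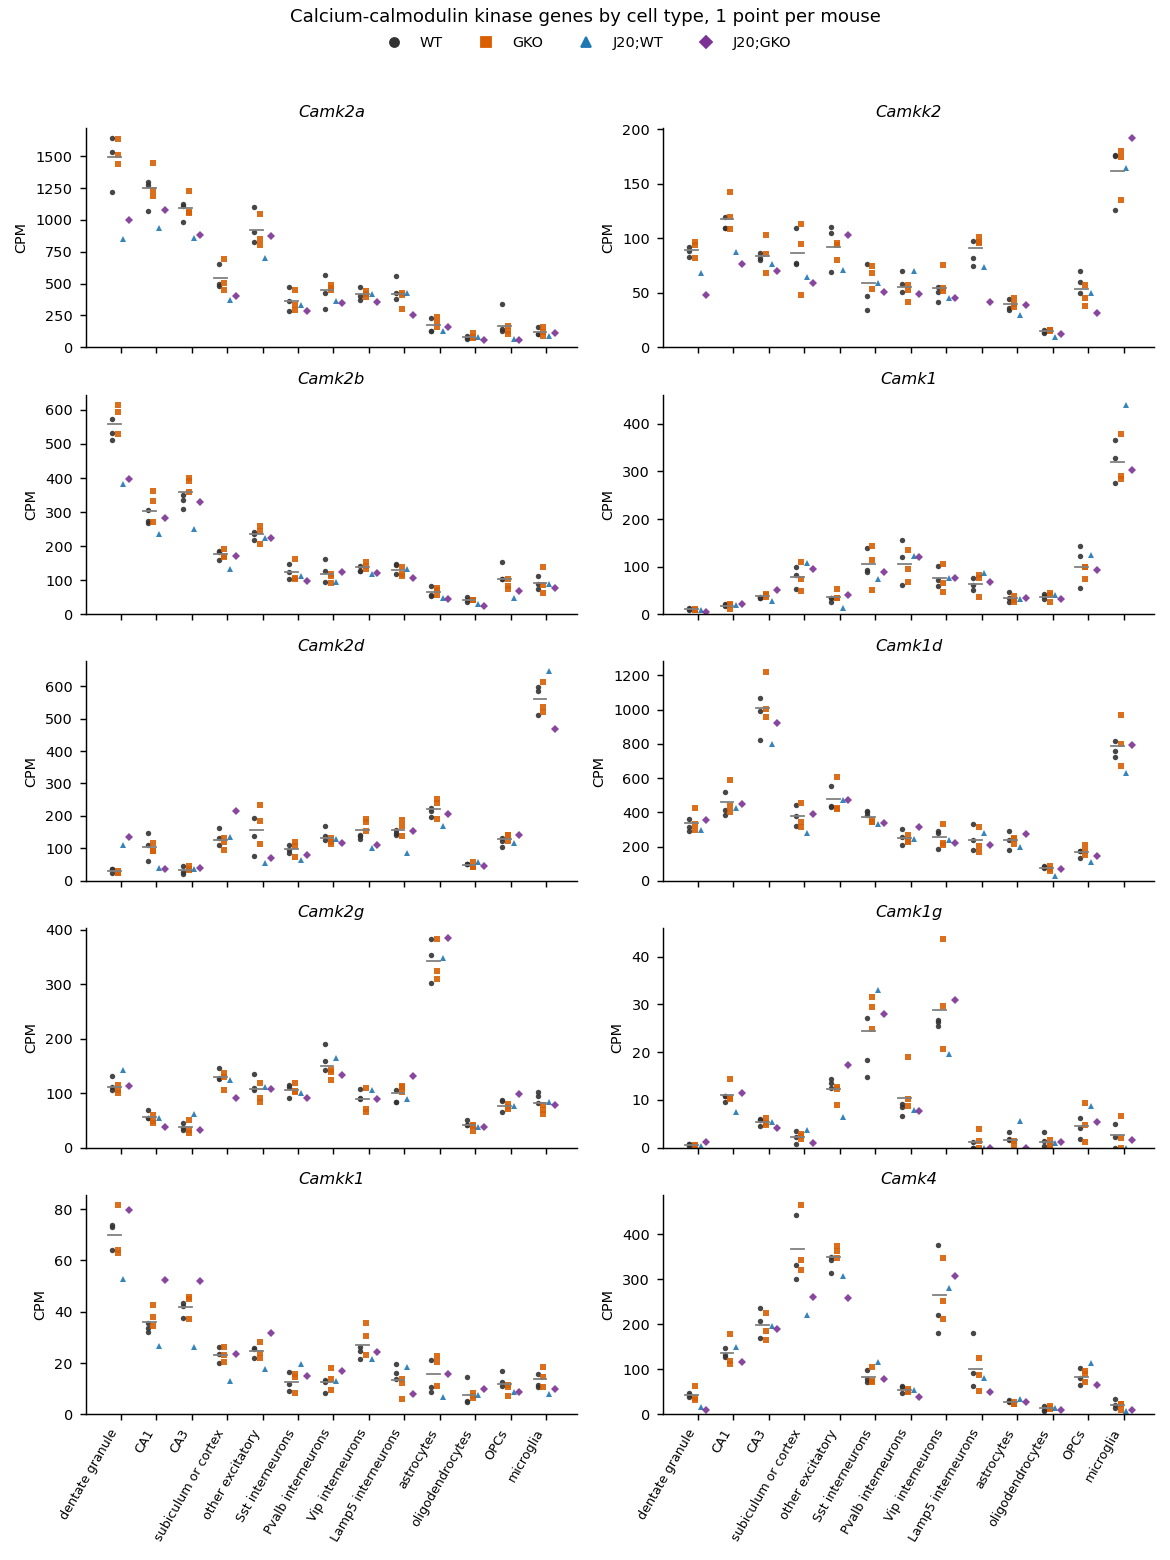
Level of each of the 10 genes (CPM, linear axes that start at 0) in 13 cell types, with 1 point per mouse and a grey line at the mean of the 6 WT and GKO mice. Camk2a, Camk2b and Camkk1 have their highest mean in dentate granule neurons, Camk2d and Camk1 in microglia, and Camk2g in astrocytes.

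Free RNA from lysed cells adds some reads of abundant neuronal genes to every nucleus. It was gauged by 6 other genes of excitatory neurons, whose level in a glial type was 14.8 to 30.4% of that in excitatory neurons for astrocytes, 4.67 to 25.9% for oligodendrocytes, 5.83 to 47.0% for OPCs and 6.75 to 26.3% for microglia. Camk2a lay within the gauge in all 4, at 15.2%, 7.18%, 12.2% and 10.6%, so its reads in glia were at the level of this background. Camk1, Camk2d and Camk2g lay above the gauge in all 4 glial types, and Camk1d and Camkk2 did so in astrocytes and microglia. Camk1g and Camkk1 lay little above it there, at 33.9 and 32.9% in astrocytes and 31.1 and 28.6% in microglia. In OPCs Camkk2 and Camk4 (54.6% each) and Camk1g (89.1%) were above it as well. Camk1g rests on few reads in glia, at means of 1.85 CPM in astrocytes, 5.20 CPM in OPCs and 2.21 CPM in microglia. Its share in OPCs ran from 21.3 to 201% over the mice, so some mice lay within the gauge.

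The next question was which of these differences exceeded the spread between mice. Each type contrast was fitted over all 8 mice with the mouse as a term, and a gene was called where its log2 fold change was larger than 0.3 in either direction and its adjusted p (edgeR's quasi-likelihood test, Benjamini-Hochberg over 14943 genes) below 0.05. Between inhibitory and excitatory neurons 9 of the 10 genes were called, 4 higher and 5 lower in inhibitory neurons, against 44.0% of all genes. Camk1g was higher in inhibitory neurons by 2.50 ± 0.150 (log2 fold change ± SE, as for the other values of this kind, adjusted p = 8.8e-25), and so were Camk1 by 1.60 ± 0.0819, Camk2d by 0.85 ± 0.186 and Camk2g by 0.51 ± 0.0633. Camk2b (-1.38 ± 0.0765), Camk2a (-1.35 ± 0.101), Camkk1 (-1.26 ± 0.0999), Camk1d (-0.85 ± 0.0685) and Camkk2 (-0.59 ± 0.0853) were lower. Camk4 did not pass the test, at -0.10 ± 0.123 (adjusted p = 0.52).

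The 3 principal neuron types of the hippocampus differed in most of the genes. In CA1 against dentate granule neurons 6 genes were higher and 3 lower, against 42.3% of all genes called. The difference was largest for Camk1g, at 4.35 ± 0.241, and Camk4 was higher in CA1 by 1.94 ± 0.156 (adjusted p = 8.3e-17). Camk2g (-1.09 ± 0.0780), Camkk1 (-0.89 ± 0.0906) and Camk2b (-0.79 ± 0.0837) were lower in CA1, and Camk2a was at -0.13 ± 0.114 (adjusted p = 0.33). In CA3 against dentate granule neurons 4 genes were higher and 4 lower, against 46.6% of all genes called, with Camk1g (3.33 ± 0.296), Camk4 (2.49 ± 0.159), Camk1 (1.97 ± 0.128) and Camk1d (1.57 ± 0.0817) higher in CA3.

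In CA3 against CA1 neurons 3 genes were higher and 4 lower, against 28.4% of all genes. Camk1d was higher in CA3 by 1.10 ± 0.0807, Camk1 by 1.05 ± 0.118 and Camk4 by 0.55 ± 0.147. Camk2b, at 0.22 ± 0.0844, passed the p but not the fold. In subiculum or cortex against CA1 neurons 3 genes were higher and 6 lower, against 34.0% of all genes. Camk1 (2.05 ± 0.115), Camk4 (1.21 ± 0.148) and Camk2g (1.13 ± 0.0824) were higher there, and Camk1g (-2.26 ± 0.247) and Camk2a (-1.34 ± 0.118) led the lower ones.

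Among glia, 9 of the 10 genes were higher in OPCs than in oligodendrocytes and none was lower, against 57.5% of all genes called in either direction and 29.3% called higher. Camk4 led at 2.46 ± 0.243, ahead of Camk1g at 1.71 ± 0.439 and Camkk2 at 1.68 ± 0.170, and Camkk1 did not pass (0.30 ± 0.232, adjusted p = 0.28). The Camk1g value rests on means of 5.20 CPM in OPCs and 1.20 CPM in oligodendrocytes. Camk1d, Camk2a and Camk2b, which were called, lay within the free-RNA gauge in both types. The part of background reads in their differences was not tested. In microglia against the mean of the other glia 4 genes were higher and 3 lower, against 61.4% of all genes called. The 4 were Camk1 (2.50 ± 0.0913), Camkk2 (2.22 ± 0.108), Camk1d (2.22 ± 0.0673) and Camk2d (2.07 ± 0.196). The 3 were Camk4 (-1.01 ± 0.286), Camk2g (-0.62 ± 0.0931) and Camk2a (-0.33 ± 0.127), and Camk2a went to 0.03 once called doublets were left out.

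The Camk2d value of CA1 neurons came from 1 of their 3 clusters. Cluster 21 held 337 nuclei that passed the CA1 markers and whose leading genes were Il1rapl2, Wfs1 and Cpa6. In it Camk2d was at 624, 578 and 603 CPM in WT mice and 691, 630 and 775 CPM in GKO mice, against 16.1 to 27.9 CPM in cluster 4 and 14.8 to 28.2 CPM in cluster 14. Without cluster 21, CA1 neurons held 21.4 ± 4.10 CPM of Camk2d (n = 6) in place of 103 ± 29.7 CPM. The contrast of CA1 with dentate granule neurons, 0.87 ± 0.243 with the cluster (adjusted p = 0.0020), then turned to -0.995 (adjusted p = 6.3e-05), and that of CA3 with CA1 turned from -1.30 ± 0.260 to 0.60. These fits hold all 8 mice, and the 2 J20 mice move them, since their Camk2d in dentate granule neurons was at 110.6 and 135.7 CPM. Over the 6 WT and GKO mice alone the contrast of CA1 with dentate granule neurons was 1.86 ± 0.131 with cluster 21 and -0.39 ± 0.121 without it (adjusted p = 0.0053), and that of CA3 with CA1 was -1.51 ± 0.144 with it and 0.73 ± 0.132 without it (adjusted p = 9.8e-06). Subiculum or cortex against CA1, which did not pass with the cluster (0.53 ± 0.242, adjusted p = 0.076), was at 2.43 ± 0.216 without it. The same 6 mice gave 0.34 for Camk2d in CA3 against dentate granule neurons, against -0.43 ± 0.268 over 8 mice, and neither passed (adjusted p = 0.069 and 0.18), though with cluster 21 left out as well the 6 mice gave 0.34 with an adjusted p of 0.022.

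Camk4 also varied within a named type. In dentate granule neurons cluster 0 held 42.9 to 74.9 CPM and cluster 3 held 13.6 to 35.9 CPM in the 6 WT and GKO mice, with no overlap. Cluster 30, 131 other excitatory nuclei, had the highest mean of Camk4 among the excitatory clusters, at 464 to 603 CPM, and overlapped cluster 15 of subiculum or cortex, which reached 527 CPM. Differences between clusters are a description, since all genes but the 10 shaped the clusters.

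**Figure D2:**
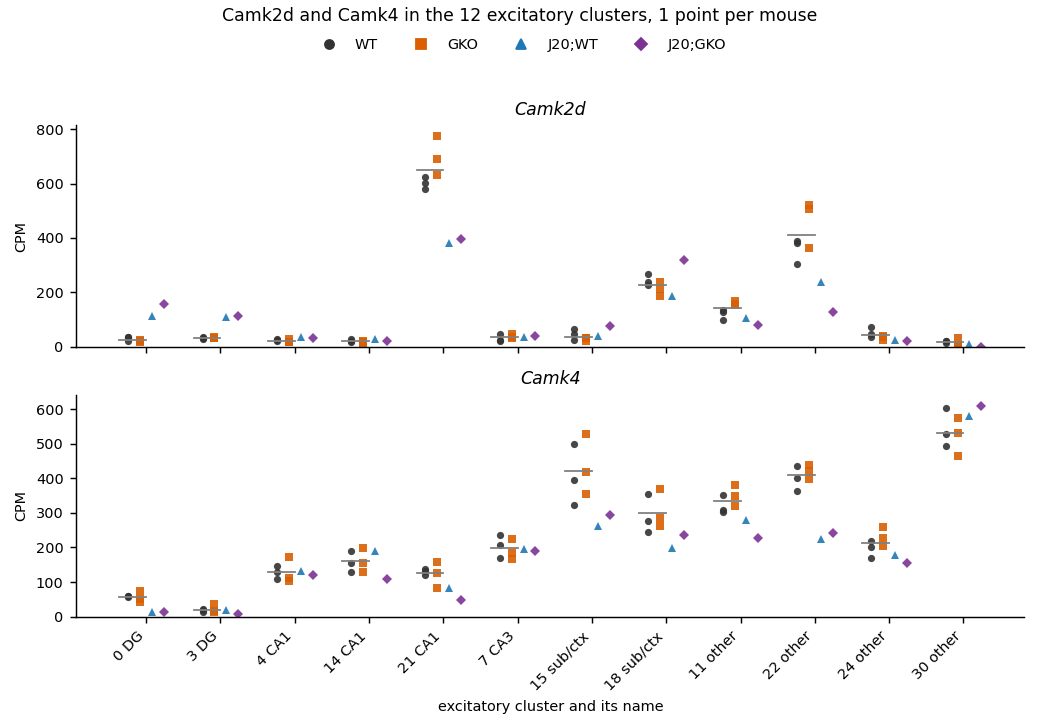
Camk2d (upper panel) and Camk4 (lower panel) in the 12 excitatory clusters (CPM, linear axes that start at 0), with 1 point per mouse and a grey line at the mean of the 6 WT and GKO mice. Camk2d stands at 578 to 775 CPM in cluster 21 and 14.8 to 28.2 CPM in the other CA1 clusters in these 6 mice, and the J20 mice (triangle and diamond) lie above the others for Camk2d in clusters 0 and 3.

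CaMKII holoenzymes mix subunits, so the share of each gene in the summed Camk2 UMIs of a type was computed per mouse. Nuclear reads of a gene also depend on its length, so shares were compared between types and not between genes. In the 6 WT and GKO mice Camk2a made up 73.0 ± 1.63% of Camk2 UMIs in CA1 neurons, 71.8 ± 1.60% in CA3 neurons, 68.0 ± 2.12% in dentate granule neurons, 55.6 ± 4.43% in subiculum or cortex and 52.2 ± 3.08% in inhibitory neurons. Its share in glia was 38.5 ± 5.19% in oligodendrocytes, 33.9 ± 8.57% in OPCs, 21.997 ± 5.26% in astrocytes and 14.4 ± 3.46% in microglia. Camk2d made up 65.4 ± 4.63% in microglia and 1.34 ± 0.320% in dentate granule neurons, and Camk2g made up 42.6 ± 5.59% in astrocytes.

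Over all 8 mice the Camk2a share was lower in dentate granule than in CA1 neurons in 8 of 8 mice, by 7.65 percentage points, and higher in inhibitory neurons than in astrocytes by 30.7 points in 8 of 8 mice. The J20 mice widened the first difference. Their Camk2a share in dentate granule neurons was 57.2 and 60.7%, against 64.2 to 69.8% in the WT and GKO mice. In CA1 neurons it was 74.0 and 75.2% against 70.5 to 75.1%. Of 12 pairs of types tested by 2-sided exact sign-flip permutation, 8 reached p = 0.0078, the smallest this design allows, with a Benjamini-Hochberg value of 0.012. Subiculum or cortex and inhibitory neurons differed by 1.44 points (exact p = 0.41), CA1 and CA3 by 2.001 points (exact p = 0.047, adjusted 0.056), oligodendrocytes and OPCs by 7.97 points (exact p = 0.078) and astrocytes and OPCs by -8.62 points (exact p = 0.039, adjusted 0.052). With cluster 21 left out, the Camk2a share of CA1 neurons was 74.5 to 78.9% over the 8 mice. That lay above the 68.8 to 73.1% of CA3 neurons, and this pair was not tested without the cluster. The Camk2a reads of glia lay within the free-RNA gauge, so the shares in glia and the tests that hold a glial type include background reads. Between WT and GKO mice the Camk2a share differed by -0.03 points in excitatory neurons (69.0 ± 2.29% in WT, 69.0 ± 1.44% in GKO, exact p = 1), where 3 mice against 3 cannot go below 0.1. Of 16 sets of nuclei compared this way, the groups stood apart in Pvalb interneurons alone, at 53.8, 52.0 and 41.6% in WT mice and 56.6, 56.2 and 55.8% in GKO mice. That difference of 7.06 points had an exact p of 0.1, the smallest possible here, and the J20 mice were at 48.6 and 48.4%. The other 15 exact p-values ran from 0.2 to 1.

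**Figure D3:**
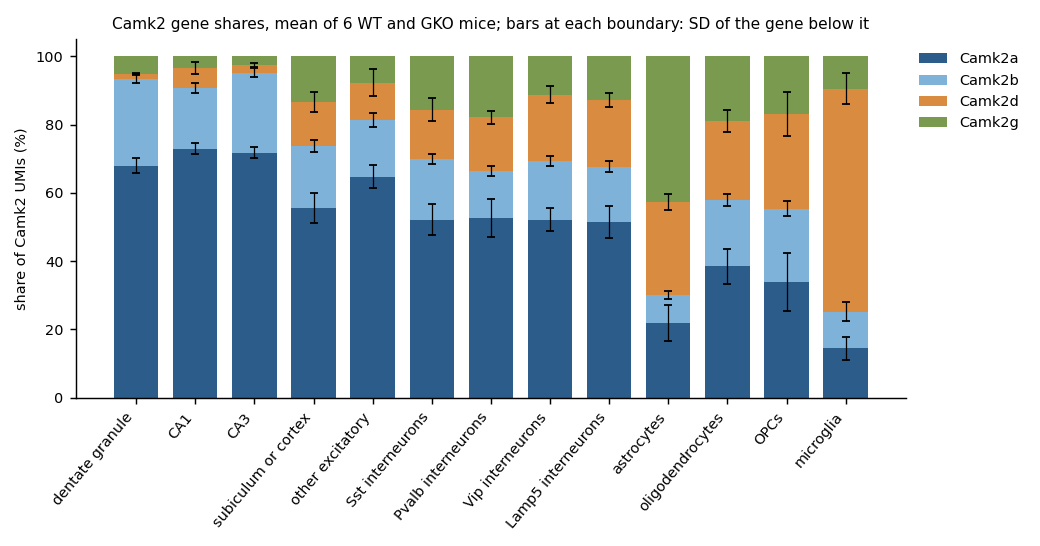
Share of Camk2a, Camk2b, Camk2d and Camk2g in the summed Camk2 UMIs (%, stacked to 100) by cell type, mean of the 6 WT and GKO mice, with the SD of the gene below each boundary. Camk2a takes over 50% in every neuron type, Camk2d 65.4% in microglia and Camk2g 42.6% in astrocytes.

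The study asked what the loss of GSAP changes in hippocampal cells. None of the 10 genes was called between the libraries labelled GKO and WT in any of 10 types by edgeR's quasi-likelihood test, and 0% of all genes was called in excitatory neurons (17488 tested), dentate granule neurons (14127), CA1 (14429), CA3 (12482), subiculum or cortex (11532), inhibitory neurons (12934), astrocytes (11923), oligodendrocytes (11533), OPCs (9522) and microglia (8434). Between 159 and 254 genes a type had an unadjusted p under 0.05, fewer in every type than that threshold gives by chance. The fit had no term for the batch and sex that set WT 1 and GKO 1 apart. With a batch term 363 to 676 genes a type had such a p, and with the replicate block 372 to 703. The standard errors below are those of the fit without such a term. DESeq2 called 1 gene, in oligodendrocytes, which was no member.

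In excitatory neurons the differences of the 10 genes were small, from -0.17 ± 0.111 for Camk2g to 0.16 ± 0.127 for Camk2b (log2 fold change, GKO against WT, ± SE). Camk2a was at 1174 ± 127 CPM in WT and 1220 ± 128 CPM in GKO mice (n = 3 each), a log2 fold change of 0.08 ± 0.148 with an adjusted p of 1.00. Camk2d was at 81.1 ± 28.4 CPM in WT and 79.3 ± 20.3 CPM in GKO mice. Camk1g in inhibitory neurons, at 0.53 ± 0.196, and Camk2b in OPCs, at -0.52 ± 0.205, had the smallest unadjusted p of the tested pairs of gene and type, and neither passed edgeR's test after adjustment over all genes, with adjusted p-values of 1.00. Standard errors of the 10 genes ran from 0.110 in dentate granule neurons to 0.436 in oligodendrocytes.

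**Figure D4:**
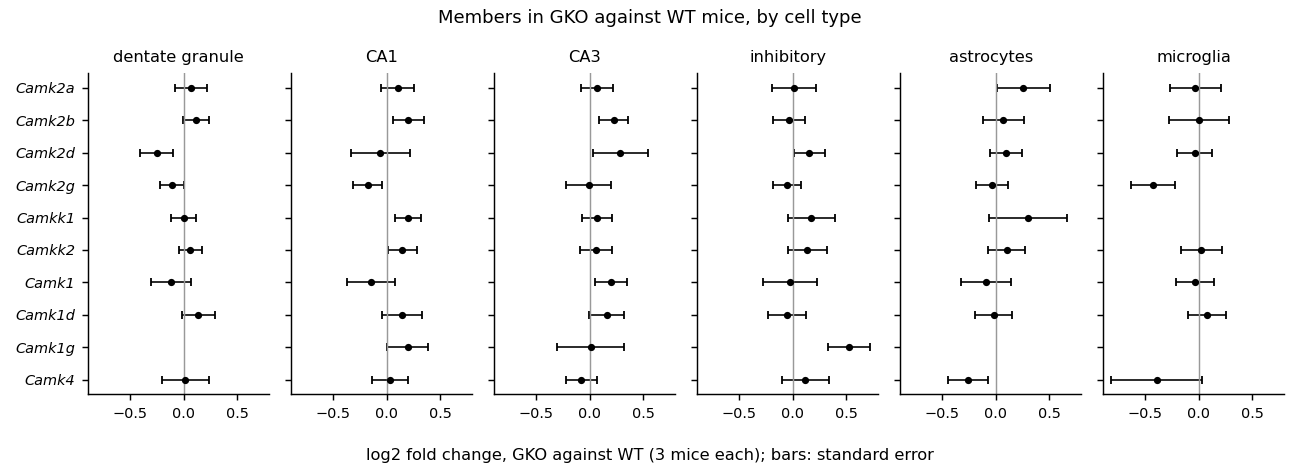
Log2 fold change of the 10 genes, GKO against WT (3 mice each, bars are the standard error), in 6 cell types; a gene with no point was not tested in that type. Of the points shown, Camk1g in inhibitory neurons, at 0.53, has the smallest p, and no gene passes the adjusted threshold.

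A comparison of the J20 mice with the 6 others was added after their values had been seen, because Camk2d stood apart in dentate granule neurons. It used edgeR with terms for Gsap and J20 over 8 mice. In dentate granule neurons 5 of the 9 genes tested were called, against 5.87% of all 14829 genes. In the other types none was, against 0.333% of genes in excitatory neurons as a whole, 0.0939% in CA1, 0.0543% in CA3, 0.126% in subiculum or cortex, 0.0240% in astrocytes, 0.0172% in oligodendrocytes, 0.0403% in OPCs and 0% in inhibitory neurons and in microglia. At an unadjusted p under 0.05 there were 4 of the 10 in excitatory neurons as a whole, 3 in CA1 and 1 or 2 in each other type. Of all genes, 2393 of 17993 in excitatory neurons and 1663 of 14907 in CA1 had such a p. In each other type 726 (OPCs) to 1157 (CA3) genes did. DESeq2 called 2 of the 10 in excitatory neurons, against 339 of all 17993 genes, and 1 in CA1, against 109 of 14907. Both J20 mice lay outside the range of the 6 others for 6 of the 10 genes in dentate granule neurons, against 26.2% of the 7102 genes at 20 CPM or more there. The 10 genes were not held to that minimum. Camk1, among the 6, was at 5.14 to 13.2 CPM, and Camk1g, not among them, at 0.160 to 1.08 CPM.

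Camk2d was higher in dentate granule neurons of both J20 mice. It was at 35.3, 24.2 and 36.02 CPM in WT mice, 24.6, 25.7 and 29.1 CPM in GKO mice, 110.6 CPM in J20;WT and 135.7 CPM in J20;GKO. The J20 values rest on 544 and 501 UMIs, and the 6 others lie far below them with no overlap. The log2 fold change was 2.01 ± 0.158 (adjusted p = 4.9e-05), and 2.31 ± 0.231 in cluster 0 and 1.65 ± 0.126 in cluster 3, both called. The share of Camk2d in Camk2 UMIs was 7.44% and 8.25% in the J20 mice against 1.04 to 1.89% in the others.

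Camk4 was lower. It was at 47.2, 44.0 and 39.1 CPM in WT mice, 36.7, 32.3 and 62.3 CPM in GKO mice, 15.7 CPM in J20;WT and 10.6 CPM in J20;GKO. The J20 values rest on 77 and 39 UMIs, and the groups did not overlap. The log2 fold change was -1.80 ± 0.280 (adjusted p = 0.0044). It was -2.16 ± 0.243 in cluster 0 and, at -0.66 ± 0.451, did not pass in cluster 3 (adjusted p = 0.51).

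The α and β subunit genes of CaMKII and Camkk2 were also lower. Camk2a was at 850 CPM in J20;WT and 997 CPM in J20;GKO against 1221 to 1643 CPM in the 6 others (-0.77 ± 0.167, adjusted p = 0.019). Camk2b was at 383 and 398 CPM against 513 to 616 CPM (-0.59 ± 0.126, adjusted p = 0.017). Camkk2 was at 68.5 and 47.9 CPM against 81.9 to 96.6 CPM (-0.70 ± 0.144, adjusted p = 0.016). None of the 3 overlapped. Camk1, at 8.13 and 5.14 CPM against 9.31 to 13.2 CPM, did not pass (-0.72 ± 0.227, adjusted p = 0.085), and Camk1d, Camk2g and Camkk1 were at -0.13, 0.11 and -0.17. Cluster 0 alone gave the same 5 calls, and in cluster 3 Camk2d, Camk2a, Camkk2 and Camk1 (-1.37 ± 0.290, adjusted p = 0.013) were called. Of all genes, 760 of 13658 were called in cluster 0 and 466 of 12423 in cluster 3.

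These calls depend on both J20 mice. Leaving out either one leaves a single J20 mouse, which the fit assumes to vary like the WT and GKO mice. Without J20;GKO only Camk2d was called (1.71, adjusted p = 7.5e-04), and without J20;WT Camk2d, Camk4 and Camkk2 were called. The libraries also differ by batch, since J20;WT is the only library of its date. J20;GKO shares its date with WT 2, WT 3, GKO 2 and GKO 3, whose Camk2d of 24.2 to 36.02 CPM lies below its 135.7 CPM. J20;GKO also differs from these libraries in sex, with Xist at 2410 CPM against 1.68 to 1.99 CPM. A batch term takes up J20;WT whole, so the J20 value of that fit rests on J20;GKO alone and cannot be told apart from sex. It called 4 of the 9 genes and 1866 of all 14829 genes, against 871 without the term. Camk2d was then at 2.36 (adjusted p = 2.2e-06), Camkk2 at -0.93, Camk2a at -0.57 and Camk2b at -0.53, while Camk4, at -2.09, did not pass (adjusted p = 0.15). Depth moved too: dentate granule nuclei had a median of 5824 UMIs in J20;WT, 8677 in J20;GKO and 7135 to 10020 in the others, and the part of depth was not tested.

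The type with the most Camk2d is microglia. The summed microglia markers in dentate granule nuclei were at 88.8 and 82.9 CPM in the J20 mice, below the 92.8 to 112 CPM of the others. The astrocyte list was lower as well, at 621 and 482 CPM against 746 to 984 CPM. The list of mural cells or fibroblasts was higher, at 39.2 and 13.8 CPM against 3.90 to 11.02 CPM, with both J20 mice above the others for 1 of its 7 genes, and its part in the result was not tested. Inhibitory markers were at 1639 CPM in J20;WT and 740 CPM in J20;GKO against 1363 to 1717 CPM. The CA3 list was higher in both J20 mice, at 706 and 740 CPM against 548 to 641 CPM, with both above the others for 2 of its 6 genes. The dentate granule list itself was at 2972 and 2587 CPM against 2948 to 3844 CPM, with both J20 mice below the others for 2 of its 6 genes and above them for 1. OPC markers were at 39.9 and 66.1 CPM against 29.9 to 42.2 CPM. The part of these lists in the calls was not tested.

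Whether the J20 difference was larger in dentate granule neurons than in the other principal neurons was tested as an interaction with the mouse as a term. This test was also added after the values had been seen. Dentate granule neurons were picked from those same values, so its p-values are not independent of that choice. Against CA1, 3 of 10 genes were called, with 4.69% of all genes called, and against CA3 the same 3 were called, with 3.16% of all genes. The 3 were Camk2d, Camk4 and Camk2a, while Camk2b and Camkk2 were not called. Camk2d in CA1 outside cluster 21 was at 32.6 and 29.2 CPM in the J20 mice against 16.7 to 26.1 CPM in the others, a difference that did not pass (0.46 ± 0.181, adjusted p = 0.40). Camk4 in CA1 was at 149 and 116 CPM in the J20 mice, within the 111 to 178 CPM of the others. In CA3 it was also within their range, at 195 and 189 CPM against 166 to 237. Both J20 mice lay below the 6 others for Camk4 in subiculum or cortex (219 and 261 CPM against 300 to 465). The same held in the other excitatory neurons (307 and 259 CPM against 315 to 373). Camk2a was not called outside dentate granule neurons, although both J20 mice lay below the 6 others in CA3 (861 and 881 CPM against 986 to 1227), in CA1 without cluster 21 (943 and 1088 CPM against 1137 to 1488) and in subiculum or cortex (369 and 406 CPM against 448 to 695). Both also lay below them for Camkk2 in CA1 (87.3 and 76.7 CPM against 108 to 142). For Camk2b this was so in CA1 without cluster 21 (237 and 284 CPM against 287 to 383). In CA3 neither Camkk2 nor Camk2b had both J20 mice below the others.

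**Figure D5:**
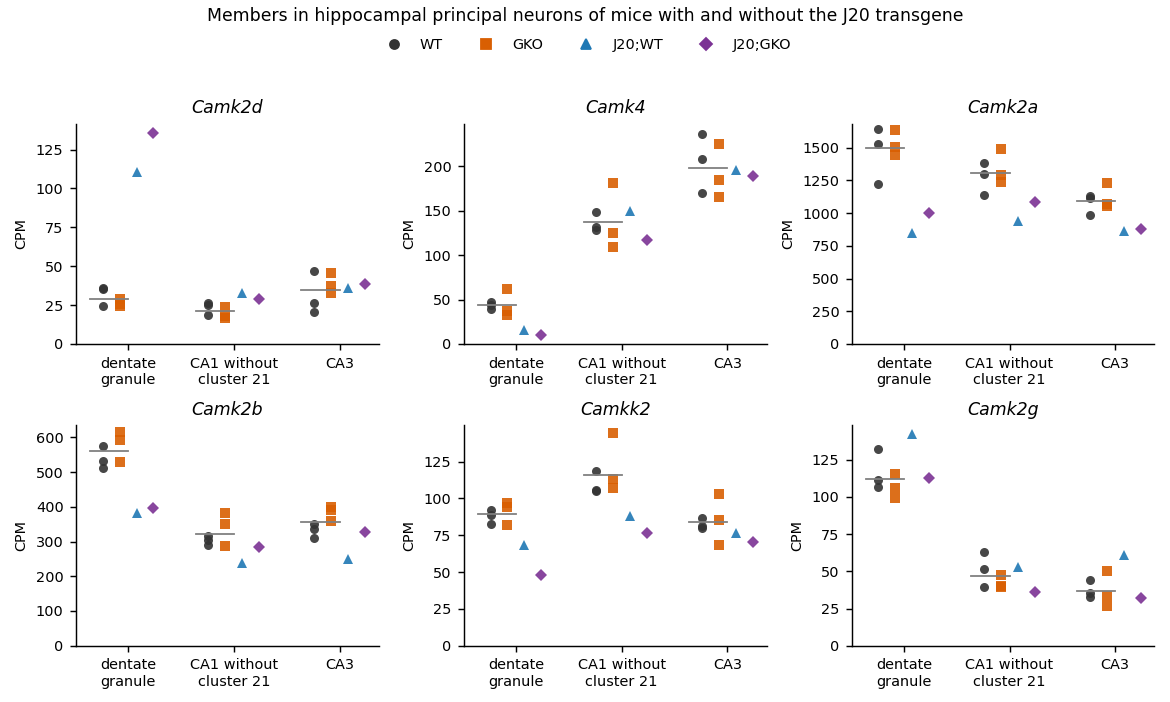
Camk2d, Camk4, Camk2a, Camk2b, Camkk2 and Camk2g (CPM, linear axes that start at 0) in dentate granule neurons, CA1 neurons without cluster 21 and CA3 neurons, with 1 point per mouse and a grey line at the mean of the 6 WT and GKO mice. In dentate granule neurons the J20 mice lie above the others for Camk2d, at 110.6 and 135.7 CPM, and below them for Camk4, Camk2a, Camk2b and Camkk2.

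J20;GKO and J20;WT can be set side by side only as 1 library each, with exact 95% Poisson intervals that cover counting error alone. Camkk1 was higher in J20;GKO in all 3 principal neuron types, at 79.6 CPM (70.8 to 89.2) against 52.7 CPM (46.4 to 59.5) in dentate granule neurons, 52.3 CPM (46.0 to 59.3) against 26.6 CPM (22.1 to 31.7) in CA1 and 52.0 CPM (42.9 to 62.5) against 26.4 CPM (20.6 to 33.4) in CA3. In CA1 and CA3 J20;GKO lay above and J20;WT below the range of the 6 other mice. Camk1 in microglia was lower in J20;GKO, at 303 CPM (261 to 350) against 440 CPM (375 to 513), and Camk2d in microglia was at 469 CPM (416 to 526) against 645 CPM (566 to 732). Camk1d in microglia went the other way, at 796 CPM (727 to 870) in J20;GKO against 629 CPM (551 to 715). Camk2g was lower in J20;GKO in all 3 principal types, at 113 CPM (102 to 124) against 142 CPM (132 to 153) in dentate granule neurons, 38.2 CPM (32.8 to 44.3) against 54.9 CPM (48.4 to 62.1) in CA1 and 32.4 CPM (25.3 to 40.9) against 61.1 CPM (52.1 to 71.3) in CA3. These 2 mice also differ in sex and batch, which cannot be told apart from genotype.

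Other genes of the pathway were taken from a list of 35, with calmodulins, CaMKII inhibitor proteins, calmodulin-binding proteins, phosphatases and substrates. Between inhibitory and excitatory neurons 8 were higher and 17 lower, against 44.0% of all genes called, with Camk2n2, an inhibitor protein of CaMKII, at 2.02 and Hdac5, a histone deacetylase and CaMK substrate, at 0.90, and Nrgn, which binds calmodulin, at -2.29 and Ppp3ca, a catalytic subunit of calcineurin, at -1.41. In CA1 against dentate granule neurons 10 were higher and 9 lower (42.3% of all genes). Gap43, a calmodulin-binding protein of growing axons, was at 3.76 and Hdac4 at 0.89, while Pcp4, another calmodulin-binding protein, was at -2.26 and Camk2n1, the other CaMKII inhibitor, at -1.03. In CA3 against dentate granule neurons 7 were higher and 10 lower (46.6% of all genes), led by Gap43 at 2.55 and Hdac4 at 1.54, with Pcp4 at -1.94 and Dapk1, a death-associated kinase, at -1.45.

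In CA3 against CA1 neurons 6 of the 35 were higher, led by Camk2n2 at 1.12 and Mylk, the myosin light chain kinase, at 0.84, and 8 were lower, led by Gap43 at -1.21 and Dapk1 at -1.05, against 28.4% of all genes. In subiculum or cortex against CA1 neurons 8 were higher, led by Pcp4 at 1.89 and Camk2n2 at 1.46, and 15 lower, led by Gria1 and Grin2a, which encode glutamate receptor subunits, at -1.81 and -1.57, against 34.0% of all genes. In OPCs against oligodendrocytes 18 were higher, led by the kinase gene Stk33 at 4.51 and Ppm1e, a phosphatase of CaM kinases, at 2.46, and 7 lower, led by Hdac5 at -1.65 and Pcp4 at -0.84, against 57.5% of all genes. In microglia against other glia 9 were higher, led by Eef2k, a calmodulin-dependent kinase of elongation factor 2, at 2.66 and Calm2 at 1.14, and 11 lower, led by Dclk1 at -3.09 and Prkaa2, an AMPK catalytic subunit, at -2.09, against 61.4% of all genes. In GKO against WT mice 0 of the 35 were called by edgeR in any type, with 4 pairs of gene and type at an unadjusted p under 0.05. In J20 against the other mice Dapk1 was the 1 called in dentate granule neurons, at -0.72 ± 0.167 (adjusted p = 0.026), against 5.87% of all genes. It did not pass without GKO 2 (adjusted p = 0.055), without J20;WT (0.077) or without J20;GKO (0.16), and of the 35 DESeq2 called 3 and the fit with a batch term 5.

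Likeness of pattern was described by Pearson's r of log2(CPM + 1) over 9 cell types among 11106 genes, with no test, since the types share libraries. Nearest to Camk2a was Wipf3 (r = 1.00), nearest to Camk2b was Plekhg5 (0.99) and nearest to Camkk1 was Tnfrsf25 (0.98). Nearest to Camk2d was Wsb1 (0.96), to Camk2g Il11ra1 (0.92), to Camk1 Whrn (0.95), to Camk1d Nckipsd (0.94), to Camk4 D030068K23Rik (0.98) and to Camkk2 Rai1 (0.98). Among the 10 genes, Camk2a followed Camkk1 (0.96) and Camk2b (0.96), Camk1d followed Camkk2 (0.88) and Camk1 followed Camk2d (0.73), while Camk2a and Camk1 ran against each other (-0.60).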

How the data were processed

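The authors deposited 1 matrix of UMI counts per mouse, made with Cell Ranger on mm10 per the labels, without normalization and before their filter on nuclei. Whether introns were counted is not given in the sources used here. Nuclei were kept as in the study's methods, with at most 5% mitochondrial UMIs and 200 to 7500 genes. They were normalized with sctransform 0.4.2, integrated and clustered with Seurat 5.3.0 (3000 features, 30 components, resolution 0.8), leaving out the 10 genes, which gave 37 clusters. Clusters were named from marker lists, and the details of the naming rule were completed after the clusters had been seen. 11 clusters with 10.2% of nuclei stayed unnamed, among them cluster 12, whose nuclei had few UMIs. Scrublet (scanpy 1.11.5) marked 3.45 to 6.50% of nuclei as doublets in 6 libraries and did not work in WT 1 and GKO 1, where it marked 1 and 0 nuclei. Called doublets were kept in the main values.

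UMIs were summed per mouse and cell type, since mice and not nuclei are the replicates, and tested with edgeR 4.0.16 (TMM, filterByExpr, robust quasi-likelihood) in R 4.3.3. The fits were tested on simulated counts. DESeq2 1.42.0 was an alternative. A call needed both a log2 fold change larger than 0.3 in either direction and an adjusted p below 0.05. All 10 genes are named. Of the pathway list, genes called in GKO or J20 mice and the 2 highest and 2 lowest called in each type contrast are named. The 3 genes most like each member were found, and the nearest is given. The members and lists were chosen with earlier results of these data known. The comparison of J20 with the other mice and its interaction with neuron type were added after their values had been seen.

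Batches follow the dates given with the deposited matrices: WT 1 and GKO 1 share one, J20;WT has its own and the other 5 libraries share the third. The labels number WT and GKO mice 1 to 3, and the numbers were taken as pairs in an alternative fit, the replicate block. Deviations of same-numbered mice correlated at 0.74, 0.34 and 0.42 over 12341 genes. Mice with different numbers of the same batch reached 0.35 and 0.52, so these values do not set pairing by number apart from batch. No pair of libraries was a duplicate. Promoter windows are RefSeq's. Sequences of proteins were not used here. The value of 1 marker gene is not reported here.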

Additional observations from a re-analysis of the deposited data

Results flagged for a closer look

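The J20 difference in dentate granule neurons was set against that in CA1 or CA3 neurons of the same 8 mice, and 6 values were flagged because the difference between the neuron types itself passed edgeR's test (adjusted p below 0.05 over 14126 genes and a log2 value larger than 0.3 in either direction). The contrast was chosen after these values had been seen, so the p-values below are no independent support for it. For Camk2d the difference in dentate granule neurons exceeded that in CA1 neurons by 3.51 ± 0.369 on the log2 scale (adjusted p = 1.0e-04) and that in CA3 neurons by 2.03 ± 0.429 (adjusted p = 0.022). Cluster 21 carries most of the Camk2d of CA1 neurons and held 17 and 5 nuclei in the J20 mice, and without it the value against CA1 was 1.53 (adjusted p = 0.010). For Camk4 the values were -1.69 ± 0.212 against CA1 (adjusted p = 5.0e-05) and -1.69 ± 0.215 against CA3 (adjusted p = 7.3e-05). For Camk2a they were -0.40 ± 0.0863 (adjusted p = 0.0050) and -0.39 ± 0.0872 (adjusted p = 0.010). The groups of WT and GKO mice hold 3 each, too few for a test of single outlying samples.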

How the results depend on the processing

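The 10 genes were called in none of the 10 types in GKO against WT under any alternative, the replicate block included, which called 0 of them. Over all genes the replicate block called 1 gene in astrocytes and 1 in OPCs, the batch term 1 and 2, and testing without a filter on low counts 1 to 9 in dentate granule, CA3, subiculum or cortex, astrocytes, OPCs and microglia. In excitatory neurons Camk2d went from -0.01 to 0.018 with the replicate block, 0.038 with a batch term and 0.0017 with cluster 12, and Camk4 from -0.01 to 0.0014 with a batch term and 0.0077 with cluster 12, all within a standard error of 0. Leaving out each mouse in turn gave log2 fold changes in excitatory neurons of -0.18 to 0.22 for Camk1, -0.018 to 0.25 for Camk1d, -0.20 to 0.15 for Camk1g, -0.037 to 0.15 for Camk2a, -0.24 to 0.31 for Camk2d, -0.16 to 0.13 for Camk4, -0.021 to 0.16 for Camkk1 and -0.023 to 0.20 for Camkk2, and differences of the Camk2a share of -1.30 to 0.91 points in excitatory neurons, -1.50 to 1.30 in dentate granule, -1.13 to 1.18 in CA1, -1.53 to 4.04 in subiculum or cortex, -2.09 to 2.16 in inhibitory neurons and -1.39 to 2.99 in microglia.

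In the type contrasts 600 of 630 alternative values kept their direction and their side of the threshold. Sign changes were Camk2d in CA1 against dentate granule (-0.995) and CA3 against CA1 (0.60) without cluster 21 (-0.39 and 0.73 over the 6 WT and GKO mice, a fit added after seeing the data), Camk2d in CA3 against dentate granule over the 6 WT and GKO mice (0.34 with or without cluster 21), Camkk2 in that contrast without a filter (-0.031) and over the 6 mice (-0.051, or -0.050 without cluster 21), and in microglia against other glia Camk1g (0.080 by library size alone, 0.079 over the 6 mice, 0.080 without cluster 21 as well), Camkk1 (0.18 by library size alone, 6.3e-05 with DESeq2) and Camk2a (0.027 without called doublets). The cause was not tested.

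In J20 against the other mice, DESeq2 called 2 of the 10 genes in excitatory neurons (Camk2a and Camkk2) and 1 in CA1 (Camk2d, lower with cluster 21 in it), and testing without a filter called 1 in subiculum or cortex (Camk4) and 1 in OPCs (Camk2a). Over all genes DESeq2 called 339 of 17993 in excitatory neurons and 109 of 14907 in CA1. Testing without a filter called 186 of 22313 in subiculum or cortex and 44 of 20564 in OPCs. With a batch term Camk1d (0.12) and Camkk1 (0.11) changed sign in dentate granule neurons, with neither called, and Camkk1 ran from -0.50 to 0.14 when each mouse was left out. Leaving out each mouse gave 1 to 5 genes called in dentate granule neurons, 0 to 1 in CA1 (1 without WT 1 or WT 2) and 0 to 1 in OPCs (1 without WT 1). Leaving out called doublets turned the Camk2a share difference to 0.064 points in excitatory neurons, -0.27 for the inhibitory ones and -1.58 in microglia. Depth limits Camk1g, with 2 and 4 UMIs in dentate granule neurons of the J20 mice, and J20 rests on 1 mouse per genotype.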
